A study of Mus musculus with 9 samples.

Results

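The phagocyte NADPH oxidase genes are 8 genes of the 54532 in the deposited table, taken by gene name: Cybb, Cyba, Ncf1, Ncf4, Rac1, Rac2, Hvcn1 and Sod2. All 8 were found once in the table and all 8 passed the filter on low values that 10858 genes passed. They were measured in wild-type primary macrophages grown from mouse bone marrow and kept for 48 h on an implant material. One group of 3 libraries came from cells on commercially pure titanium (cpTi), another 3 from the metallic glass Zr61Cu25Al14 (Ta0), which holds no tantalum, and another 3 from the glass Zr58Cu25Al14Ta3 (Ta3). A metallic glass is an alloy with no crystal lattice. Polyadenylated RNA was sequenced in every group. No other surface was sampled, so a lower level on glass cannot be told apart from a higher level on cpTi. One label calls the tissue xenograft, which was not used here. Whether replicates are separate mice or cultures is not stated, so p-values reflect only how these libraries vary, and that variation may be technical.

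The oxidase moves electrons from NADPH across a membrane onto oxygen and makes superoxide. Its core is a membrane-bound flavocytochrome made of gp91phox (from Cybb), which carries the electrons, and p22phox (from Cyba), which keeps it stable. In a resting phagocyte the organising subunits, among them p47phox (Ncf1) and p40phox (Ncf4), wait in the cytosol and join the core, with a Rac GTPase, only after a stimulus. The proton channel Hv1 (Hvcn1) balances the charge that the electrons carry out. Sod2 makes the manganese superoxide dismutase of mitochondria, which turns superoxide into hydrogen peroxide. It is no part of the oxidase complex, and it is a well-known target of NF-kappaB. Macrophages are known to carry this oxidase in their phagosomes, where it serves the killing of microbes.

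Levels are given as FPKM, the fragments per kilobase of gene length on a library's own scale. This allows levels of different genes to be set side by side, apart from the length slopes described below. The reads behind them, rebuilt from FPKM and gene length, came to between 15517877 and 18689963 a library. The lowest count of any of the 8 genes was 1365 reads (Hvcn1 in Ta0 replicate 1), where counting error alone is 2.71%. The libraries of a group were less alike than that precision. Genes of ribosomal proteins, 84 in all, took 3.64% to 7.48% of the reads in cpTi, 7.18% to 18.3% in Ta0 and 2.22% to 16.9% in Ta3. The highest shares were those of Ta0 replicate 1 and Ta3 replicate 3, and in them single-read genes made up 9.77% and 7.89% of the genes with few reads, against 22.4% to 27.9% elsewhere. A library's length slope is the slope of its log2 deviations from each gene's mean on log2 gene length, and it is positive where long genes read high. It ran from -0.055 to 0.205 in cpTi, from -0.234 to 0.028 in Ta0 and from -0.213 to 0.266 in Ta3. Within each group, a library with a higher ribosomal share had a lower slope, and Ta0 replicate 1 and Ta3 replicate 3 had the lowest slopes of all. The deposited columns were matched to the glasses by composition, and a reversed reading would swap Ta0 and Ta3.

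Macrophage markers were present in every library, with all 12 of 12 tested. Their summed level was 17839 to 30790 FPKM in cpTi, 24665 to 42483 in Ta0 and 11852 to 42577 in Ta3. Most of that sum was Lyz2, at 15280 to 28143 FPKM in cpTi, 21965 to 38907 in Ta0 and 8953 to 38583 in Ta3. Neutrophils carry the same oxidase, and 4 of their 11 markers were tested. Their summed level was 147 to 392 FPKM in cpTi, 143 to 462 in Ta0 and 31.0 to 449 in Ta3, ranges that overlap. S100a8 held 59.8 to 260 FPKM of it in cpTi, 83.2 to 367 in Ta0 and 9.55 to 369 in Ta3. Ly6g, a defining surface marker, was listed at 0 in all 9 libraries, and Mpo did not exceed 0.0708 FPKM. Of the neutrophil list Mmp8, a collagenase, was called lower on both glasses, at 86.6 FPKM in cpTi, 27.7 in Ta0 and 19.2 in Ta3 (limma, adjusted p = 0.0288 and 0.0101). The erythroid sum was 0 to 0.225 FPKM in cpTi but 13.8 in Ta0 replicate 1 and 35.5 in Ta3 replicate 3. These are bulk samples, in which fewer cells of a type and less RNA in each cell cannot be told apart.

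Promoter sequence from RefSeq (GRCm38.p6) was on hand for 4 of the 8 genes: Cybb, Cyba, Ncf1 and Sod2. These are shown because Cybb and Sod2 carry the largest differences below and Cyba and Ncf1 are partners of Cybb with other patterns. Each is the 250 bases before a transcript start, 5′ to 3′ on the strand of the gene. Capitals mark matches, on either strand, to GAAA, any 2 bases and GAAA (an interferon response element), TTCNNNGAA (a gamma-activated site), GAGGAA (a core bound by ETS factors such as PU.1) and GGG, any 3 bases and TTCC (NF-kappaB).
Cybb, chrX:9469325-9469574, minus strand: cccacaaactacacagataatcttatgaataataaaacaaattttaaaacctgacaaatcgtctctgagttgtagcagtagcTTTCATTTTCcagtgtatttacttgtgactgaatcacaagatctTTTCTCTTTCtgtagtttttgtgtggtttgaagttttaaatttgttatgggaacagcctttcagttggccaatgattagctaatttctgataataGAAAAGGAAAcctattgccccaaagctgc
Ncf1, chr5:134229626-134229875, minus strand: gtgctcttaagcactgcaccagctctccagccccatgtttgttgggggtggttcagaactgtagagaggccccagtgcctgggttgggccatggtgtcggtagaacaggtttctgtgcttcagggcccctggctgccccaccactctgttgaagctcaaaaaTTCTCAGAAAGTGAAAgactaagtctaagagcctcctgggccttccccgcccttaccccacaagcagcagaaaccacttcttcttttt
Cyba, chr8:122432941-122433190, minus strand: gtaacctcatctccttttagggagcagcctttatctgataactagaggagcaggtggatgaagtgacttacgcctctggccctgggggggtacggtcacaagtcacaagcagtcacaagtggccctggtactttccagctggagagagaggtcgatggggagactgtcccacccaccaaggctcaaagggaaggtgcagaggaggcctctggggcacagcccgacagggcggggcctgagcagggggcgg
Sod2, chr17:13007589-13007838, plus strand: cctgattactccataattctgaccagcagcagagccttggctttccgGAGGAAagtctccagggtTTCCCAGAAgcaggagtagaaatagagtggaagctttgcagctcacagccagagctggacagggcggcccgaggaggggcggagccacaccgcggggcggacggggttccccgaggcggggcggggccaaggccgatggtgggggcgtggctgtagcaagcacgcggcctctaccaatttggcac

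The Cybb window held 3 matches to the interferon response element, at 29, 124 and 168 bases before the start, and Ncf1 held 1, at 82 bases before it. Of 32851 promoter windows of this length, 2.98% held that motif. In Ncf1 it overlapped a TTCNNNGAA, a motif that 7.02% of the windows held. Sod2 held 1 TTCNNNGAA and 1 GAGGAA, the latter found in 23.25% of the windows. No match to the NF-kappaB motif (4.65% of the windows) was in any of the 4. The box GGGCGG, known to be bound by Sp1 and present in 32.74% of the windows, is left in lower case; Sod2 held 4 of them, Cyba 2, Ncf1 1 and Cybb 0. Cybb was also the only window of the 4 with a low share of G and C, at 34.0% against 54.4% to 63.6%. The starts used for Cybb and Sod2 lie inside the annotated span of the gene and not at its end. A match describes the letters and does not show that a factor binds.

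Cybb (ENSMUSG00000015340, chrX:9435252-9487771, GRCm38, 5808 bases of exons) stood lower in every glass library than in any cpTi library. Its levels were 248, 218 and 269.9 FPKM in cpTi replicates 1 to 3, 105, 131 and 148 in Ta0, and 127, 145 and 99.1 in Ta3. The mean was 245 ± 26.2 FPKM in cpTi, 128 ± 21.5 in Ta0 and 123 ± 23.0 in Ta3 (SD, n = 3 each), so the cpTi level was 1.91 times that on Ta0 and 1.99 times that on Ta3. The lowest cpTi library was above the highest of the 6 glass libraries. On the log2(FPKM + 1) scale, the fit over all 10858 genes with limma gave a difference of -0.94 (SE 0.26) on Ta0 and -0.995 (SE 0.26) on Ta3. Neither passed, with adjusted p = 0.384 and 0.282, and neither did the mean of both glasses, at -0.97 (SE 0.23, adjusted p = 0.165). Ta3 against Ta0 gave -0.06, with a 95% interval from -0.66 to 0.54. Adgre1, the F4/80 antigen of macrophages, also had no glass library as high as a cpTi library, at 157 ± 7.67 FPKM in cpTi, 89.1 ± 9.98 in Ta0 and 87.9 ± 8.14 in Ta3 (adjusted p = 0.134 for the mean of both glasses by limma). Its part in the Cybb values was not tested. Of the 12 macrophage markers, 7 had a difference below 0 for that mean and 5 above 0. Cd68, among the latter, read 896 FPKM in cpTi, 1073 in Ta0 and 1349 in Ta3 on average.

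Cyba (ENSMUSG00000006519, chr8:122424776-122432930, 1039 bases), the obligate partner of Cybb in the flavocytochrome, had the highest level of the 8 in every library. It stood at 1241, 1838 and 1023 FPKM in cpTi, 2965, 1535 and 1872 in Ta0, and 1650.3, 1358 and 4019 in Ta3. The groups overlapped, and the highest values were those of Ta0 replicate 1 and Ta3 replicate 3, the libraries with the highest ribosomal protein share; the values with the length slope as a covariate are given next to those without. The differences were 0.62 (SE 0.57) on Ta0 and 0.65 (SE 0.57) on Ta3, with adjusted p = 0.751 and 0.937 by limma. With the length slope as a covariate they were 0.078 (SE 0.20) and 0.49 (SE 0.19), not called. Without Ta0 replicate 1 the Ta0 difference was 0.35, and without Ta3 replicate 3 the Ta3 difference was 0.17. The 95% intervals of the fit without a covariate and with all 9 libraries, -0.68 to 1.93 and -0.65 to 1.95, hold changes of more than 1 log2 unit in the upward direction.

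**Figure D1:**
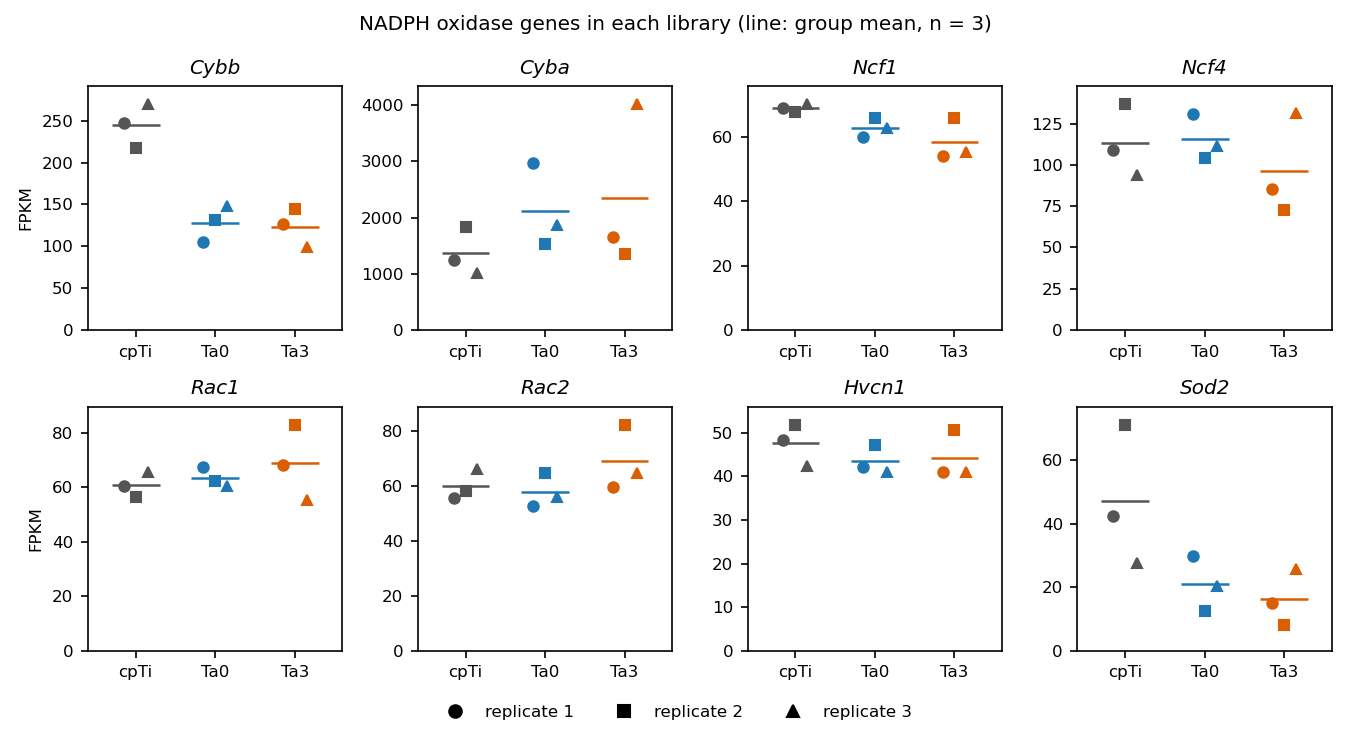
FPKM of each of the 8 genes (vertical axes, each from 0) in the 9 libraries, by material; symbols mark the replicate and lines the group mean. Cybb lies at 218 FPKM or more in cpTi and at 148 or less on the glasses, Sod2 on Ta3 lies below all cpTi libraries, and Cyba is highest in Ta0 replicate 1 and Ta3 replicate 3.

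The ratio of Cyba to Cybb FPKM was 5.01, 8.44 and 3.79 in cpTi, 28.1, 11.7 and 12.6 in Ta0, and 13.0, 9.38 and 40.6 in Ta3. Every glass library lay above every cpTi library, and the spread among glass libraries was wider than the gap between the groups. This ratio has no test. Cyba has 1039 bases of exons and Cybb 5808, so a library's length slope enters the ratio. The highest ratios were those of Ta0 replicate 1 and Ta3 replicate 3, which had the lowest slopes of all. The part of the slope in the ratio was not tested. Of the other partner genes, Ncf1 to Ncf4 ran from 0.421 to 0.910 and Rac2 to Rac1 from 0.786 to 1.17 over the 9 libraries, with the groups overlapping in both.

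**Figure D2:**
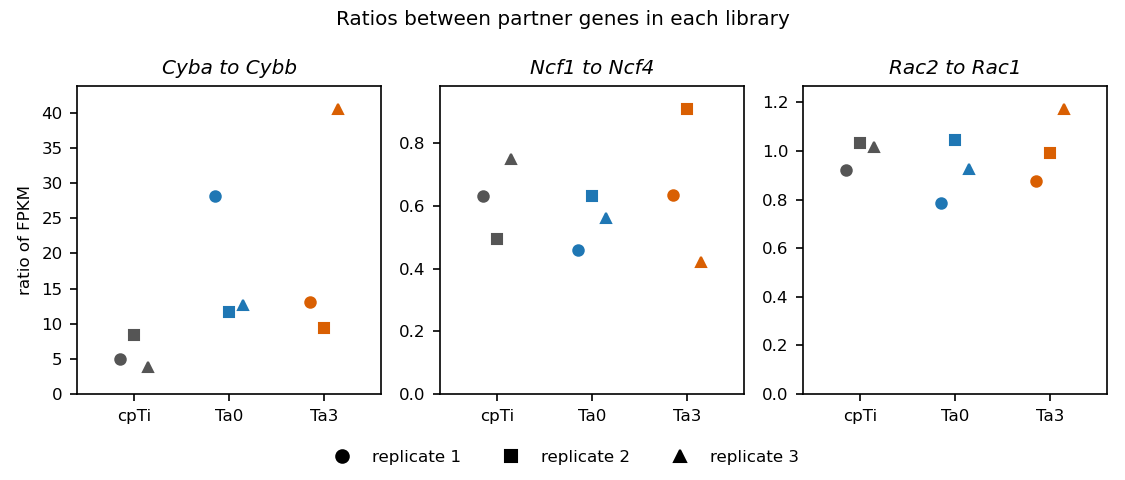
Ratio of FPKM within each library (vertical axes from 0) for Cyba to Cybb, Ncf1 to Ncf4 and Rac2 to Rac1, by material, with symbols for the replicate. The Cyba to Cybb ratio is at most 8.44 in cpTi and at least 9.38 on glass, and the other ratios overlap between materials.

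Cybc1, the chaperone that gp91phox and p22phox need to mature, is not among the 8 and is not itself a subunit of the core. It read 19.4, 23.1 and 18.0 FPKM in cpTi, 11.4, 13.8 and 12.9 in Ta0 and 11.3, 14.9 and 14.1 in Ta3. No glass library was as high as a cpTi library. Over all genes tested, 5.16% had no overlap between the glass and cpTi libraries, in either direction. The difference for the mean of both glasses was -0.59 (SE 0.15) and did not pass (limma, adjusted p = 0.228). With the length slope as a covariate Cybc1 was called for that mean, at -0.58 (SE 0.13, limma, adjusted p = 0.0349), and on neither glass alone. With the ribosomal protein percent as covariate it was not called for that mean, at -0.55 (SE 0.16, limma, adjusted p = 0.147).

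The cytosolic organisers Ncf1 and Ncf4 were not called in any comparison. Ncf1 (chr5:134220053-134229625) read 68.9, 67.9 and 70.2 FPKM in cpTi, 60.0, 66.0 and 62.7 in Ta0, and 54.2, 66.0 and 55.4 in Ta3. All 6 glass libraries were below the cpTi libraries, but the highest of the 9 was 1.2955 times the lowest. The differences were -0.13 (95% interval -0.55 to 0.29) and -0.24 (-0.66 to 0.18), with adjusted p = 0.799 and 0.918 by limma. Ncf4 (chr15:78244801-78262580), whose protein binds the phagosome lipid PI3P, read 109, 137 and 93.6 FPKM in cpTi, 131, 104 and 111 in Ta0, and 85.4, 72.5 and 132 in Ta3, with overlapping groups. Its differences were 0.04 (95% interval -0.62 to 0.69) on Ta0 and -0.26 (-0.91 to 0.40) on Ta3. The non-phagocyte relatives of the oxidase were near absent: Nox4 reached 0.0219 FPKM at most, and none of Nox1, Nox3, Noxo1, Noxa1, Duox1, Duox2, Duoxa1 and Duoxa2 passed the filter.

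The Rac GTPases complete the active oxidase, Rac2 chiefly in neutrophils and Rac1 in many cells. Rac1 (chr5:143503634-143528036) and Rac2 (chr15:78559167-78572783) were present at like levels, 60.7 ± 4.55 and 60.1 ± 5.58 FPKM in cpTi, 63.2 ± 3.53 and 57.9 ± 6.27 in Ta0, and 68.7 ± 13.8 and 69.0 ± 11.9 in Ta3 (SD, n = 3). The highest value of both was in Ta3 replicate 2, at 82.9 and 82.3 FPKM. Neither passed in any comparison: the differences ran from -0.05 to 0.24, and the 95% intervals against cpTi from -0.53 to 0.66. Of the exon bases of Rac1, 2309 of 4496 lie opposite those of Daglb, which read 7.29 FPKM in cpTi, 10.9 in Ta0 and 15.9 in Ta3. No source used here gives the strand setting of the counting, so reads of Rac1 and Daglb may be mixed there.

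Hvcn1 (chr5:122206804-122242297) varied little, between 40.9 and 51.8 FPKM over the 9 libraries with a ratio of 1.27 between the extremes. The differences were -0.12 (95% interval -0.55 to 0.30) on Ta0 and -0.11 (-0.53 to 0.32) on Ta3. It overlaps Tctn1 on the other strand by 1574 bases, but Tctn1 did not exceed 0.643 FPKM.

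Sod2 (ENSMUSG00000006818, chr17:13006846-13040063, 10008 bases) had the widest range of the 8, with 8.76 times as much in its highest as in its lowest library. It read 42.5, 71.1 and 27.7 FPKM in cpTi, 29.7, 12.5 and 20.4 in Ta0, and 14.9, 8.11 and 25.6 in Ta3. The means were 47.1 ± 22.1, 20.9 ± 8.65 and 16.2 ± 8.82 FPKM (SD, n = 3). All Ta3 libraries were below the lowest cpTi library, while Ta0 replicate 1, at 29.7, was above it. The differences were -1.12 (SE 0.49) on Ta0, -1.51 (SE 0.49) on Ta3 and -1.32 (SE 0.42) for the mean of both, and none passed (limma, adjusted p = 0.750, 0.452 and 0.436). Of the 50-base words of its transcripts, 21.045% also occur in transcripts of other genes, chiefly AC166110.4 and Rps6ka2, which did not exceed 0.0599 and 9.03 FPKM.

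Of the 8 genes, 0 were called in any comparison at an adjusted p under 0.05, and at an unadjusted p under 0.05 there were 1 on Ta0 (Cybb), 2 on Ta3 (Cybb and Sod2), 0 between the glasses and the same 2 for the mean of both. Over all genes tested, 0.424% were called for Ta0 against cpTi and 0.479% for Ta3 against cpTi. It was 0% for Ta3 against Ta0 and 0.728% for the mean of both glasses. At an unadjusted p under 0.05 by limma, the same comparisons held 597, 759, 462 and 709 of the 10858 genes. The median difference of the 8 was -0.09 on Ta0 and -0.17 on Ta3, beside 0.00 and 0.02 for all genes tested. Groups that did not overlap were commoner: 2 of the 8 on Ta0 (Cybb and Ncf1) beside 16.5% of all genes, 3 of the 8 on Ta3 (those and Sod2) beside 11.7%, and 2 of the 8 for all glass libraries against cpTi beside 5.16%. Between the glasses it was 0 of the 8 beside 8.97%. The comparisons against cpTi share the cpTi libraries.

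Several of the 8 genes were ordered by the ribosomal protein share inside a group. With the 3 libraries of a group put in order of that share, Cyba, Ncf4 and Sod2 were higher at each step in all 3 groups. Cybb was lower at each step in cpTi and Ta3 and had no one order in Ta0. The length slope of the libraries follows the same order inside each group. How many of all genes tested were ordered so was not counted, so the order is not shown to be particular to these genes. At a like share, Sod2 read 71.1 FPKM in cpTi replicate 2 (7.48% ribosomal) and 12.5 in Ta0 replicate 2 (7.18%). The former is the highest Sod2 value of all libraries and the latter the lowest of Ta0. The part of the ribosomal share in the Sod2 values was not tested.

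**Figure D3:**
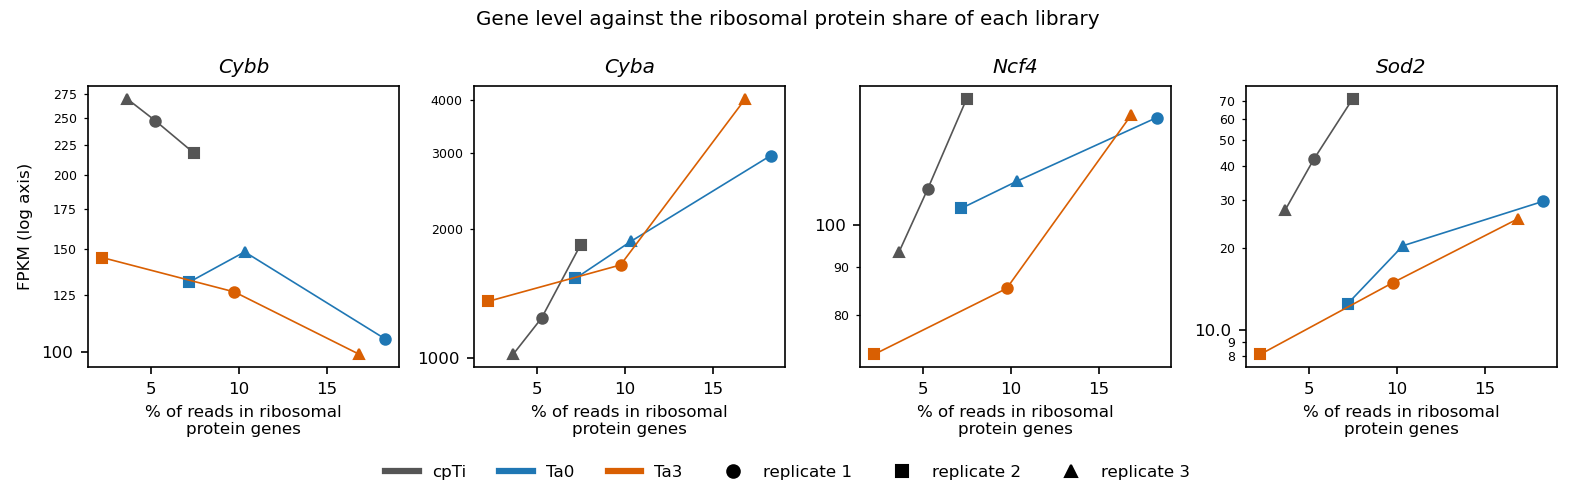
FPKM of Cybb, Cyba, Ncf4 and Sod2 (vertical axes, log scale) against each library's ribosomal protein share in percent (horizontal axes), with lines joining libraries of a material. Sod2 is higher at higher shares in each material, all cpTi values of Cybb (218 FPKM or more) lie above all glass values, and for Cyba the materials overlap.

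With the length slope as a covariate in the fit Cybb and Sod2 were both called lower on both glasses. That is 2 of the 8 in each comparison with cpTi, beside 2.27% of all genes for Ta0, 5.37% for Ta3 and 4.38% for the mean of both glasses, and 0 of the 8 for Ta3 against Ta0, beside 0%. By limma with this covariate Sod2 fell by 1.74 (SE 0.15) on Ta0 and by 1.69 (SE 0.14) on Ta3 on the log2 scale, with adjusted p = 0.000613 and 0.000192. Cybb fell by 0.74 (SE 0.13) and 0.94 (SE 0.12), with adjusted p = 0.0180 and 0.00254. The slope is computed from the same expression values, and the fit with it was an alternative to the fit above. The other 6 genes were not called with it; the nearest was Ncf4 on Ta3, at -0.34 (SE 0.11, adjusted p = 0.109). Of the 12 macrophage markers 4 were called lower and 0 higher in the same fit for the mean of both glasses (Adgre1, Csf1r, Cd14 and Fcgr1). Of the 4 tested neutrophil markers 2 were called lower for that mean (Mmp8, and S100a8 with adjusted p = 0.0155 by limma). S100a9 and Retnlg were not called, at 0.33 and -0.15. Without the covariate S100a8 was not called, at -0.12 (SE 1.04) for that mean and 0.46 (SE 1.21) on Ta0. The part of these markers in the calls of Cybb and Sod2 was not tested.

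When each of the 9 libraries was left out in turn under this covariate, Sod2 stayed called in 9 of 9 fits for each glass. Cyba was called in 1 of 9, on Ta3 without Ta3 replicate 1. Cybb stayed called in 9 of 9 for Ta3 and in 6 of 9 for Ta0, where the call was lost without cpTi replicate 1 (adjusted p = 0.0955), cpTi replicate 2 (0.114) or Ta0 replicate 2 (0.158). With the ribosomal protein percent in place of the slope, Sod2 was called on both glasses (limma, adjusted p = 0.00864 and 0.00273). Cybb was called on Ta3 (0.0324) but not on Ta0 (0.173). Of the markers called with the slope, Adgre1 and Mmp8 stayed called for the mean of both glasses (0.0353 and 0.00163). Csf1r, Cd14, Fcgr1 and S100a8 did not (0.356, 0.0516, 0.0814 and 0.0647). Set beside the cpTi library nearest to it in length slope, each glass library held less Sod2, with the cpTi level 2.39 to 3.49 times that of the glass library. Ta0 replicates 1 and 3 and Ta3 replicate 3 shared cpTi replicate 2, the library with the most Sod2, so these ratios are not independent. The gap in slope was 0.020 to 0.060 for 4 of the glass libraries but 0.179 for Ta0 replicate 1 and 0.158 for Ta3 replicate 3, which have no close match.

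**Figure D4:**
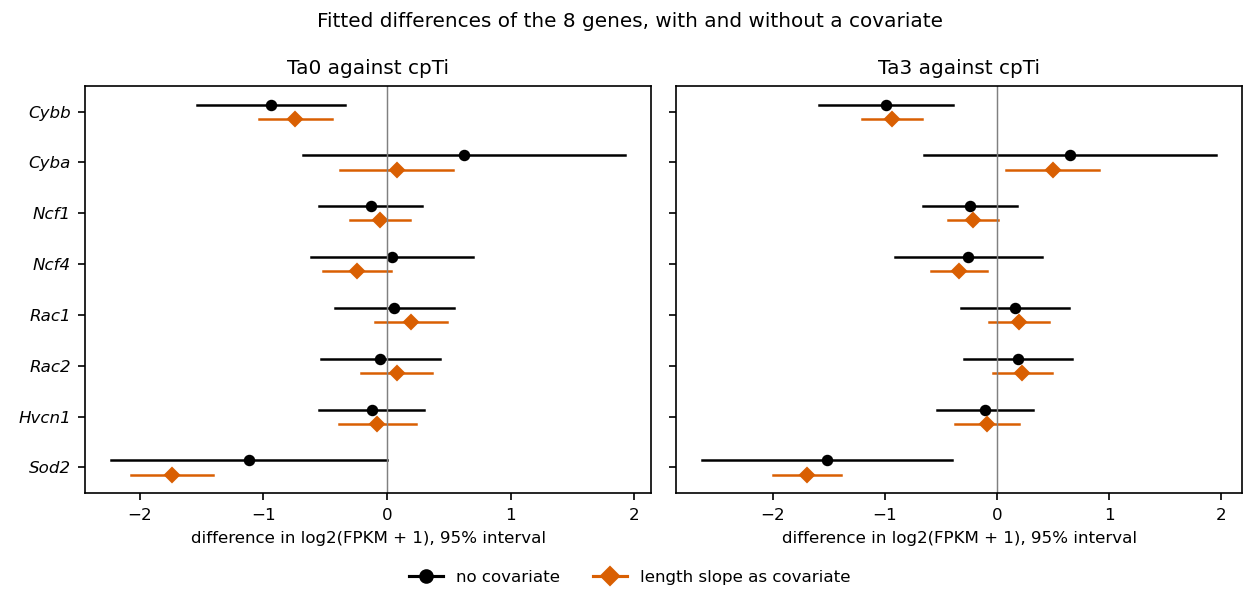
Fitted difference from cpTi in log2(FPKM + 1) with its 95% interval (horizontal axes) for the 8 genes on Ta0 and on Ta3, from the fit without a covariate (circles) and with the length slope as covariate (diamonds). The Sod2 interval on Ta0 spans 0 without the covariate and runs from -2.07 to -1.41 with it, and the intervals of Rac1, Rac2 and Hvcn1 span 0 in both.

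The genes whose profile over the 9 libraries came closest are given for 3 of the 8. Closeness was the root mean square difference of centred log2 values, among 5556 genes. These genes were picked by likeness over the same libraries, so their like levels by material follow from the choice. For Cybb they were Nab1 (0.12), S1pr1 (0.12) and Slfn8 (0.13); Nab1 read 19.7 FPKM in cpTi, 10.1 in Ta0 and 10.7 in Ta3. For Rac2 they were P4hb (0.04), Cers2 (0.05) and Cyb5r3 (0.05). For Sod2 they were Zbp1 (0.18), Rtp4 (0.20) and Slpi (0.21), all lower in mean on glass; Rtp4 read 53.1 FPKM in cpTi, 29.1 in Ta0 and 18.3 in Ta3. Among the 8 genes the most alike were Ncf1 and Hvcn1 (0.11), then Rac1 and Rac2 (0.16), and the least alike were Cybb and Cyba (1.01).

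Other genes of the pathway were counted from 5 lists, with no test of a list. Of 22 tested genes that signal to the oxidase, 0 were called in any comparison without a covariate; their median difference for the mean of both glasses was -0.13, beside 0.01 for all genes. With the length slope as a covariate 2 were called lower and 0 higher for that mean, beside 4.38% of all genes. They were the PI3-kinase subunit Pik3cg and the phospholipase Pla2g4a (limma, adjusted p = 0.0352 and 0.0173). On Ta3 3 were lower, these and Rap1a (0.0491), beside 5.37% of all genes. With the ribosomal percent as covariate neither Pik3cg nor Pla2g4a was called for that mean (limma, adjusted p = 0.246 and 0.0750). Pla2g4a was then called on Ta3 (0.0412), but Pik3cg and Rap1a were not (0.137 and 0.132). Prkcd, the kinase that phosphorylates p47phox, read 37.6 ± 7.17 FPKM in cpTi, 32.4 ± 4.38 in Ta0 and 36.5 ± 13.6 in Ta3, and Itgb2, the shared chain of the beta2 integrins, 305 ± 84.0, 268 ± 42.4 and 374 ± 128. Of 18 tested genes that remove superoxide or peroxide, 0 were called without a covariate; 12 had a difference above 0 and the median was 0.32, which became -0.02 with the length slope as covariate. With it 2 were called higher for that mean, the glutathione peroxidase Gpx3 and the mitochondrial carrier Ucp2 (limma, adjusted p = 0.00278 and 0.0245). Another 3 were lower, the peroxiredoxins Prdx1, Prdx5 and Prdx6 (0.00661, 0.00462 and 0.0231), beside 4.38% of all genes called. With the ribosomal percent as covariate Gpx3 stayed called for that mean (limma, adjusted p = 0.0182). Ucp2, Prdx1, Prdx5 and Prdx6 were then not called (0.182, 0.124, 0.0647 and 0.0817). Sod1, the cytosolic superoxide dismutase, read 21.3 to 53.7 FPKM in cpTi and 20.9 to 123 on glass, with its highest value in Ta3 replicate 3. Catalase (Cat) read 34.5 ± 2.21 FPKM in cpTi, 25.7 ± 3.298 in Ta0 and 29.6 ± 5.003 in Ta3, and the peroxiredoxin Prdx1 spanned 289.6 to 2618 FPKM with overlapping groups. None of 8 genes of NADPH supply and 5 genes of ion movement was called without a covariate. With the length slope the NAD kinase Nadk was called lower on Ta3 (limma, adjusted p = 0.0366) and for the mean of both glasses (0.0318). With the ribosomal percent Nadk was called in neither (limma, adjusted p = 0.136 and 0.173).

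Among 10 transcription factors and regulators of the oxidase and Sod2 genes, 1 was called without a covariate. Nfkbia, the NF-kappaB inhibitor that is itself an NF-kappaB target, read 70.3, 83.5 and 52.7 FPKM in cpTi, 32.6, 26.6 and 26.3 in Ta0, and 25.5, 27.3 and 18.0 in Ta3. No glass library reached the lowest cpTi library. It fell by 1.5025 on Ta3 (limma, adjusted p = 0.0463) and by 1.36 for the mean of both glasses (0.0277); on Ta0 the difference was not called. The call on Ta3 was lost in 16 of 21 other settings and that of the mean in 11 of 20. With the length slope as a covariate Nfkbia was called lower on Ta0 too (limma, adjusted p = 0.0209). In that fit Irf1, a factor of interferon responses, was called lower on Ta0, on Ta3 and for the mean of both (0.0180, 0.0157 and 0.00624). With the ribosomal percent Nfkbia was called on Ta3 and for the mean (limma, adjusted p = 0.0115 and 0.0125) but not on Ta0 (0.0710). Irf1 was then called for the mean (0.0363) but not on Ta0 or Ta3 (0.0806 and 0.0649). Spi1, which makes the ETS factor PU.1, read 143 ± 17.9 FPKM in cpTi, 158 ± 15.1 in Ta0 and 165 ± 33.2 in Ta3 and was not called (mean of both glasses 0.17, SE 0.22, adjusted p = 0.864).

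**Figure D5:**
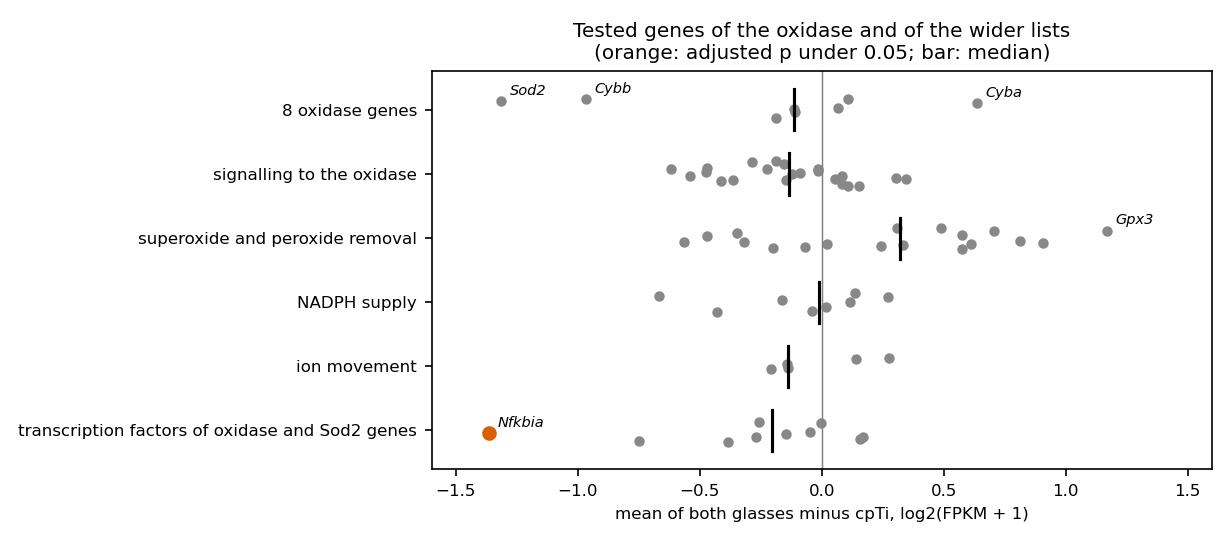
Difference between the mean of both glasses and cpTi in log2(FPKM + 1) (horizontal axis) for the tested genes of the 8 oxidase genes and of the 5 wider lists (rows); bars are medians and orange marks an adjusted p under 0.05. Nfkbia is the only orange point, Sod2 and Cybb are the lowest of the 8, and the removal list has the highest median, 0.32.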

How the data were processed

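The authors deposited 1 table of FPKM for 54532 genes in 9 libraries. The submitters' processing notes list DESeq2 1.20.0, featureCounts 1.5.0-p3, HISAT2 2.0.5, fastp and CASAVA 1.8 and the build GRCm38 (mm10), with no role for any; the strand setting is not given in the sources used here. FPKM multiplied by the deposited gene length were whole reads within 0.05 reads for 100% of values under 20000 reads. The 10858 genes that reached 1 FPKM in 3 or more libraries were tested. Values were taken as log2(FPKM + 1), which understates changes of low genes, and fitted as 3 group means with limma 3.58.1 in R 4.3.3, with a mean-variance trend, two-sided moderated tests and Benjamini-Hochberg adjustment over all genes within each comparison; genes were called at an adjusted p under 0.05. The fit was tested on simulated data with and without a length bias. The pass conditions left out the fit without a covariate under that bias. No deposited column of sample values was left unused.

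Members and lists were chosen with earlier results of these data known. Named genes were the 8 members, called members of the wider lists (up to 2 a list, direction and comparison), a fixed set (Cybc1, Nox4, Sod1, Cat, Prdx1, Prkcd, Spi1, Nfkbia, Itgb2) and the 3 nearest genes of Cybb, Rac2 and Sod2 with a mean of at least 5 FPKM. Daglb, Tctn1, AC166110.4, Rps6ka2, the macrophage and neutrophil markers and the pathway genes called only with a covariate were named after their values were seen. Some pathway genes and lists are not reported here. Gene models were checked against GENCODE M21. Alternatives were another pseudocount, filters, scalings, variance models, libraries, covariates and a replicate block.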

Additional observations from a re-analysis of the deposited data

How the results depend on the processing

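No member was called in the comparisons as reported, or with another pseudocount (0.1), filter, variance model, only the groups compared, limma-voom on rebuilt reads, rescaling to the full FPKM total, without both Ta0 replicate 1 and Ta3 replicate 3, or without any single library (0 to 0 members called in each comparison). With the length slope as covariate 2 members, Cybb and Sod2, were called lower on Ta0, on Ta3 and for the mean of both glasses. With the ribosomal percent as covariate, chosen after seeing the data, 1 was called on Ta0 (Sod2) and 2 on Ta3 and for the mean of both. Rescaling to the FPKM total of genes of at least 200 bases, also chosen after seeing the data, called 1 (Sod2, mean of both). The cause was not tested. Of 664 other values of the member differences, 612 kept their direction and side of the threshold, 12 became called and 40 changed sign; no sign change was a call. Against cpTi the differences of Cybb and Sod2 kept their sign in every setting run. The count of called genes over the wider pathway lists moved by over 1.5 times in 38 of 83 other values.

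The replicate numbers did not pair the libraries: correlations of same-numbered deviations ran from -0.82 to 0.85, and 3 of 9 libraries were closest to their own number. A fit with the replicate block called 0 members in each comparison, and 4, 4, 0 and 14 of all genes where the reported fit called 46, 52, 0 and 79 (Ta0, Ta3, Ta3 against Ta0, mean of both).

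Over all genes the counts on Ta0, Ta3 and the mean of both were 27, 29 and 65 with a pseudocount of 0.1, 28, 21 and 46 with no filter, 36, 31 and 67 at 5 FPKM or more, 11, 11 and 16 rescaled to the full FPKM total, 12, 13 and 31 rescaled to genes of at least 200 bases, 20, 18 and 59 without both high-ribosomal libraries, 246, 583 and 476 with the length slope and 96, 256 and 190 with the ribosomal percent. With only the groups compared they were 33 on Ta0 and 7 on Ta3. With each library left out in turn they ran from 7 to 84, from 8 to 30 and from 11 to 101; Ta3 against Ta0 gave 0 in all of these.

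Rescaling to a common FPKM total moved the median of all genes to -0.48 on Ta0 and -0.09 on Ta3, and gave -0.57 for Ncf4 and -0.55 for Rac1 there, -0.27 for Rac1 and -0.31 for Rac2 in the mean of both, and 0.40 for Cybb, 0.35 for Ncf1, 0.16 for Ncf4 and 0.032 for Sod2 in Ta3 against Ta0. The total of genes of at least 200 bases moved it to -0.47 and -0.22 and gave -0.55 for Ncf4 and -0.53 for Rac1 on Ta0, -0.15 for Rac1 and -0.12 for Rac2 on Ta3, -0.34 and -0.38 in the mean of both, and 0.22 for Cybb and 0.17 for Ncf1 in Ta3 against Ta0. The length slope gave -0.24 for Ncf4 and 0.077 for Rac2 on Ta0, and -0.014 for Hvcn1 and 0.047 for Sod2 in Ta3 against Ta0. The ribosomal percent gave -0.047 for Cyba, -0.29 for Ncf4 and 0.10 for Rac2 on Ta0, and -0.0103 for Hvcn1 in Ta3 against Ta0. Without both Ta0 replicate 1 and Ta3 replicate 3, Ncf4 was -0.053 and Rac2 0.0089 on Ta0, and Cyba -0.18 in Ta3 against Ta0. With each library left out in turn, Ncf4 ran from -0.089 to 0.18 and Rac2 from -0.14 to 0.019 on Ta0, and Ncf4 from -0.24 to 0.034 in the mean of both. In Ta3 against Ta0, Cyba ran from -0.45 to 0.33, Cybb from -0.19 to 0.0905, Hvcn1 from -0.079 to 0.0803 and Rac1 from -0.043 to 0.25. Each of the 8 genes had at least 1365 reads in every library, so counting error was at most 2.71%.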
